A study of Mus musculus with 6 samples.

Results

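The genes described here are 10 markers of macrophages and of their activation states, chosen by name: the complement genes C1qa, C1qb and C1qc, the identity genes Adgre1, Csf1r and Cd68, and the activation genes Cd163, Mrc1, Arg1 and Spp1. All 10 were found among the 24091 genes of the count table, and all 10 were among the 15050 genes with enough counts to be tested. RNA was sequenced from whole mouse prostate tissue in 6 libraries, 2 per group. The 12Q group was prostate tumors of males with a humanised allele that encodes a tract of 12 glutamines, and the 48Q group was prostate tumors of males whose allele encodes 48 glutamines. Both tumor genotypes were also Ctnnb1(Ex3)L/wt, which is 1 β-catenin allele with a conditional exon 3, and carried PBCre-4, a transgene that expresses Cre recombinase in prostate epithelium. WT was normal prostate of wild-type mice. No group here carried the humanised alleles without a tumor or the β-catenin allele with the mouse's own tract, so 12Q and 48Q tumors were set against WT prostate and against each other. Ages and any pooling of animals are not in the labels used here. Nor do the labels state that each replicate was a different mouse, and the p-values therefore rest on a spread between samples that could be technical.

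Macrophages are phagocytes that reside in tissue or arise from blood monocytes, and the receptor encoded by Csf1r keeps them alive. They are a main source of C1q, the protein that starts the classical complement pathway and helps to clear dying cells. By convention, alternative activation is read from Arg1, Mrc1 and Cd163 and classical activation from genes such as Nos2 and Tnf, while macrophages of tumors often express Spp1 and Trem2. Activation genes can have sources other than macrophages: Spp1 and Arg1 are also made by epithelial cells, and Mrc1 also by lymphatic endothelium. In whole tissue, fewer cells of a type and less RNA per cell cannot be told apart.

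Library totals ranged from 26416181 to 28559546 counts, and the factors that scaled them from 0.708 in a WT library to 1.24 in a 48Q library. Levels are CPM, each count scaled to the adjusted library total, on which 3 counts in a library came to between 0.0855 and 0.156 CPM. The 12Q replicates differed most from each other (chi-square per degree of freedom 268.2 across genes, against 42.1 for 48Q and 186.3 for WT), which touches Spp1, Arg1, Cd68 and C1qb below. Epithelial genes were read beside the prostate label. Epcam is a gene of epithelium and not of prostate alone, and the prostate gene Pbsn was low in 12Q. They therefore do not check the label in that group. Epcam was at 413.9 and 541.7 CPM in 12Q, 284.6 and 200.98 CPM in 48Q and 1365 and 536.6 CPM in WT, and Pbsn, the secreted prostate protein probasin, at 3.33 and 5.14 CPM in 12Q, 3953 and 2247 CPM in 48Q and 28207 and 16139 CPM in WT.

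The promoters of 4 members are shown because these genes carry the contrast among the 10: C1qb and C1qc moved together, Spp1 had the largest increase of the 10 and Cd163 the largest decrease. Each window runs from 250 bases before to 50 bases after the RefSeq transcript start, 5′ to 3′ on the gene's own strand, from RefSeq on GRCm38.p6, the assembly that mm10 presents. Capitals mark AGGAAG, a core that ETS-family factors such as PU.1 bind, on either strand (read as CTTCCT on the opposite one). The windows are chr4:136886151-136886450 on the minus strand for C1qb, chr4:136892865-136893164 on the minus strand for C1qc, chr6:124304401-124304700 on the plus strand for Cd163 and chr5:104434861-104435160 on the plus strand for Spp1. The RefSeq start of C1qb lies 23 bases upstream of the start in the count table.
C1qb: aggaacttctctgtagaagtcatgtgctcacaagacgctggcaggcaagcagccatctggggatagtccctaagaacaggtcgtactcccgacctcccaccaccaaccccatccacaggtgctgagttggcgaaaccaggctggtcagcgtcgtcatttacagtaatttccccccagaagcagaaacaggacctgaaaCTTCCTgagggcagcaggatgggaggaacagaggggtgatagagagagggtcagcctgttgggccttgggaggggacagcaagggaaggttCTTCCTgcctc
C1qc: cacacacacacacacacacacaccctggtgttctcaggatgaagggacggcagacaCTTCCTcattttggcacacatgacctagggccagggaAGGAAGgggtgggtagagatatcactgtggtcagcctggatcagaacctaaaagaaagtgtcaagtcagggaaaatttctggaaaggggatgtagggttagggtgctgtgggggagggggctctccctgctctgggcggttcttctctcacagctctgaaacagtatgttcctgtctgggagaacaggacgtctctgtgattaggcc
Cd163: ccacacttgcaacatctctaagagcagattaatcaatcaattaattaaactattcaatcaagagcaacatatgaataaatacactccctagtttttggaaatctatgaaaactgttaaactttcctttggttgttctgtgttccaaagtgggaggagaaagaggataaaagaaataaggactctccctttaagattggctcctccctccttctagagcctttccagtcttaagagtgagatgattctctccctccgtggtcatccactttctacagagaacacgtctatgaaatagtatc
Spp1: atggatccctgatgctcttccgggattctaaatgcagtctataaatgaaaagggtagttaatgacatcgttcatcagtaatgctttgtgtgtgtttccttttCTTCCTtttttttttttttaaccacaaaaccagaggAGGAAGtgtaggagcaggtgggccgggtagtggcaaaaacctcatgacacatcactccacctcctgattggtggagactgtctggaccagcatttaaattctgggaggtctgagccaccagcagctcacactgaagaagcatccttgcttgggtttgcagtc
The core began at -52 and 39 in C1qb, at -194 and -157 in C1qc and at -148 and -112 in Spp1, counted from 0 at the start, and the Cd163 window held none. Of the 10 genes, 6 were found in the RefSeq table used here (these 4, Cd68 and Mrc1), and C1qa, Adgre1, Csf1r and Arg1 were named only. Mrc1 held the core at -210, -168 and -36 and Cd68 held none. AGGAAG was in 35.4% of the 32851 promoter windows of the table, so it is a common sequence among promoters. Among the other motifs searched on both strands, TGANTCA (AP-1, in 7.81% of windows) was found in Cd68 at -149 and -24, TGCTGA (a Maf half-site, 19.5%) in C1qb at -131 and CTTTGA (the TCF/LEF core, 16.0%) in Mrc1 at -130, and no match overlapped another. These matches describe letters in the windows and show no binding.

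The 3 C1q genes were 3.41 to 4.10 times as high in tumors of either genotype as in WT prostate, and their levels in 12Q and 48Q tumors lay close together. They encode the A, B and C chains of C1q and lie side by side within 18.7 kb of chromosome 4 (mm10), all on the minus strand: C1qb at chr4:136880145-136886177, C1qc at chr4:136889802-136892914 and C1qa at chr4:136895916-136898844. C1qa was at 56.5 and 58.3 CPM in 12Q, 58.3 and 57.2 CPM in 48Q and 15.7 and 13.5 CPM in WT. C1qb was at 52.0 and 34.9 CPM in 12Q, 41.7 and 48.3 CPM in 48Q and 15.3 and 10.1 CPM in WT. C1qc was at 40.9 and 36.8 CPM in 12Q, 42.2 and 46.7 CPM in 48Q and 12.3 and 9.37 CPM in WT. For each chain, every tumor library lay above both WT libraries.

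In 12Q over WT, the log2 fold changes were 1.97 ± 0.22 for C1qa, 1.77 ± 0.33 for C1qb and 1.84 ± 0.26 for C1qc (SE), with adjusted p of 0.00492, 0.0162 and 0.00818 in edgeR's quasi-likelihood test, adjusted by Benjamini and Hochberg's method over all 15050 genes with a threshold of 0.05. In 48Q over WT they were 1.98 ± 0.22, 1.82 ± 0.33 and 2.04 ± 0.26 in the same order of genes, with adjusted p of 0.0136, 0.0387 and 0.0186. Between 12Q and 48Q the differences were -0.01 ± 0.21, -0.05 ± 0.32 and -0.19 ± 0.25 (adjusted p = 0.983, 0.931 and 0.646). Without WT replicate 2, C1qb no longer passed in 12Q (adjusted p = 0.0541). The 48Q calls of all 3 chains were lost without WT replicate 1, 48Q replicate 1 or 48Q replicate 2 (adjusted p up to 0.215), and that of C1qb also without WT replicate 2.

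The shares of the 3 chains overlapped or lay within a few percentage points between groups. Per kilobase of the lengths in the table, C1qa made up 37.3% and 44.3% of the C1q total in 12Q tumors, 40.46% and 37.05% in 48Q tumors and 35.8% and 40.35% in WT prostate. C1qc made up 27.75% and 28.7% in 12Q tumors, 30.04% and 31.1% in 48Q tumors and 28.7% and 28.8% in WT prostate. The sum of the 3 genes is the denominator for the other members below.

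**Figure D1:**
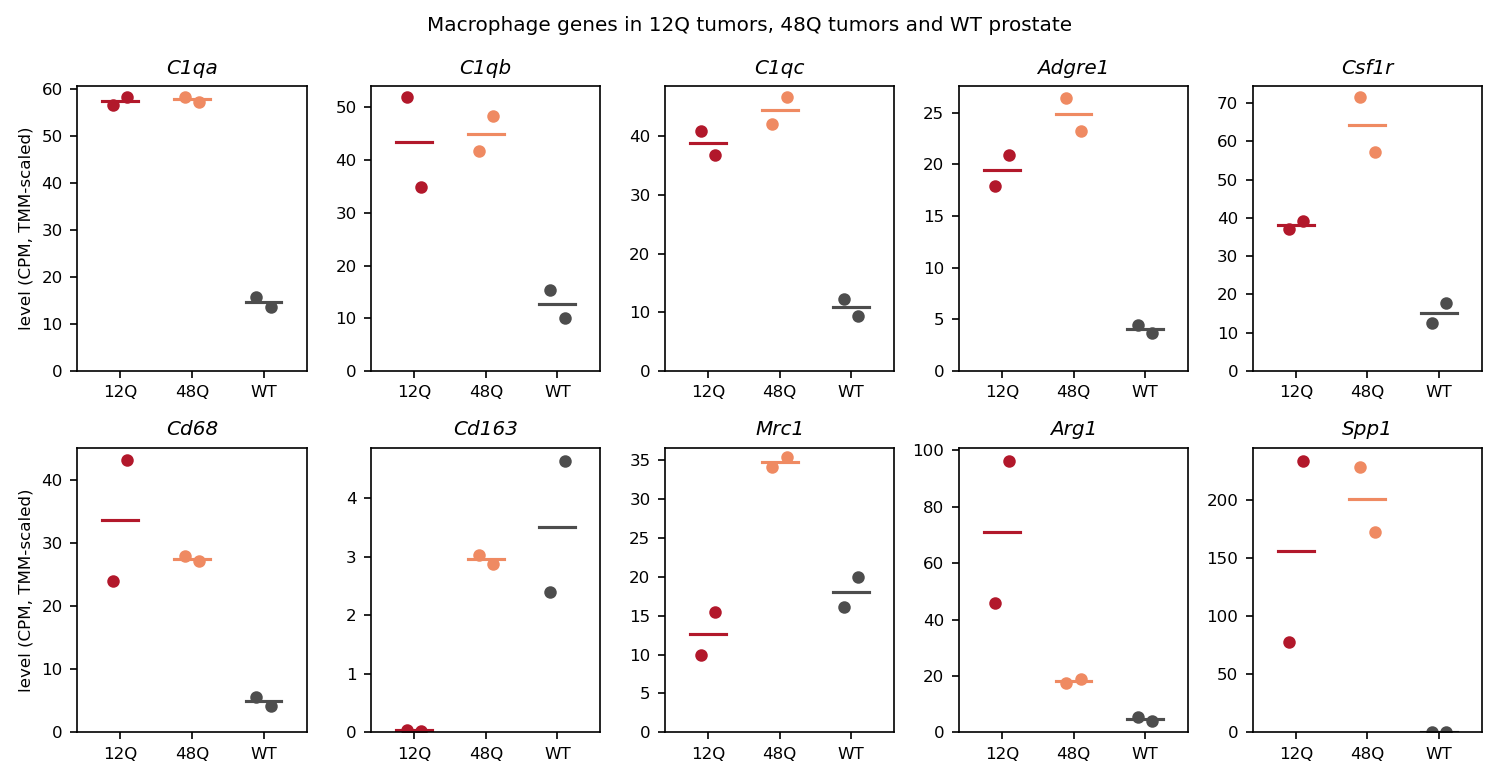
Level of each of the 10 genes (CPM, vertical axes from 0, a scale per gene) in the 2 libraries of 12Q tumors, 48Q tumors and WT prostate, with points for libraries and bars for group means. The C1q genes, Adgre1, Csf1r, Cd68 and Spp1 were higher in all 4 tumor libraries than in WT, Cd163 was at 0.0370 and 0.0309 CPM in 12Q, and Arg1 was highest in 12Q.

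The 3 identity genes were also higher in both tumor genotypes than in WT. Adgre1 (chr17:57358686-57483529, plus strand), which encodes the surface receptor F4/80, was at 17.9 and 20.9 CPM in 12Q, 26.4 and 23.2 CPM in 48Q and 4.48 and 3.62 CPM in WT. Its log2 fold change was 2.26 ± 0.30 in 12Q over WT (adjusted p = 0.00723) and 2.61 ± 0.31 in 48Q over WT (adjusted p = 0.0159). The 48Q libraries lay above the 12Q libraries without overlap, by a log2 difference of -0.35 ± 0.29 in 12Q over 48Q that did not pass (adjusted p = 0.456).

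Csf1r (chr18:61105572-61131139, plus strand), the receptor for CSF1 and IL-34, was at 37.2 and 39.2 CPM in 12Q, 71.6 and 57.3 CPM in 48Q and 12.6 and 17.7 CPM in WT. The order 48Q, 12Q, WT held in every library. The log2 fold change was 1.34 ± 0.27 in 12Q over WT (adjusted p = 0.0201) and 2.09 ± 0.28 in 48Q over WT (adjusted p = 0.0194), and the difference of -0.75 ± 0.26 in 12Q over 48Q did not pass (adjusted p = 0.143). The 12Q call was lost without 12Q replicate 2, either 48Q replicate or WT replicate 1, and in a fit of the 2 groups alone (adjusted p up to 0.0647). Exons of Csf1r overlap those of Hmgxb3, so part of its count may belong there.

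Cd68 (chr11:69664213-69666170, minus strand), a protein of phagocyte lysosomes, was at 24.0 and 43.2 CPM in 12Q, 27.9 and 27.1 CPM in 48Q and 5.68 and 4.16 CPM in WT. The 12Q replicates spread around the 48Q values, and all 4 tumor libraries were well above WT. It rose by a log2 fold change of 2.77 ± 0.39 in 12Q (adjusted p = 0.00795) and 2.48 ± 0.38 in 48Q (adjusted p = 0.0272), with a difference of 0.29 ± 0.36 between 12Q and 48Q (adjusted p = 0.631). The 48Q calls of Adgre1, Csf1r and Cd68 were lost without WT replicate 1 or either 48Q replicate (adjusted p up to 0.122), and that of Cd68 also without WT replicate 2.

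Cd163 was nearly absent from 12Q tumors and was the only one of the 10 genes that passed between 12Q and 48Q. It encodes the scavenger receptor that takes up hemoglobin bound to haptoglobin and lies at chr6:124304651-124330527 on the plus strand. Each 12Q library held 1 count, whereas the 48Q libraries held 101 and 101 and the WT libraries 46 and 105. As a level, Cd163 was at 0.0370 and 0.0309 CPM in 12Q, 3.04 and 2.88 CPM in 48Q and 2.40 and 4.64 CPM in WT. Both 12Q libraries lay far below all others, and the 48Q values fell between those of the WT replicates.

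The ratio of Cd163 levels was 0.0114 for 12Q over 48Q (exact 95% interval 0.00137 to 0.0417, counting error only) and 0.00933 for 12Q over WT (0.00112 to 0.0343). The fitted log2 fold change was -6.28 ± 0.77 in 12Q over 48Q (adjusted p = 0.0229), -6.53 ± 0.78 in 12Q over WT (adjusted p = 0.00554) and -0.25 ± 0.54 in 48Q over WT (adjusted p = 0.804). The 12Q over WT call held when any 1 of the 6 libraries was left out (adjusted p up to 0.0297). Leaving out 12Q replicate 1, 12Q replicate 2, 48Q replicate 1 or 48Q replicate 2 ended the 12Q over 48Q call (adjusted p up to 0.0986), while the fitted difference stayed between -6.37 and -6.15.

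Mrc1, which encodes the mannose receptor CD206 (chr2:14229414-14332023, plus strand), was lowest in 12Q and highest in 48Q. It was at 9.91 and 15.5 CPM in 12Q, 34.0 and 35.3 CPM in 48Q and 16.1 and 20.0 CPM in WT. The 3 groups did not overlap, but no comparison passed: the log2 fold change was -1.45 ± 0.32 in 12Q over 48Q (adjusted p = 0.0582), -0.51 ± 0.31 in 12Q over WT (adjusted p = 0.28) and 0.94 ± 0.31 in 48Q over WT (adjusted p = 0.133). DESeq2's Wald test gave an adjusted p of 0.00194 for 12Q over 48Q.

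Arg1 encodes arginase 1, which splits arginine into ornithine and urea, and lies at chr10:24915207-24927470 on the minus strand. It was at 45.8 and 96.4 CPM in 12Q, 17.4 and 19.0 CPM in 48Q and 5.63 and 4.20 CPM in WT. Every 12Q library was above every 48Q library, and every 48Q library above WT, although the 12Q replicates themselves differed by more than the 48Q and WT means. It rose in 12Q over WT (log2 fold change 3.85 ± 0.44, adjusted p = 0.00503), a call kept when any 1 of the 6 libraries was left out. The differences of 1.89 ± 0.41 in 48Q over WT (adjusted p = 0.0538) and 1.97 ± 0.40 in 12Q over 48Q (adjusted p = 0.0522) lay at the threshold and passed under 6 and 3 of 12 alternatives.

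Spp1 showed the largest change of the 10. It encodes osteopontin, a secreted ligand of integrins and CD44, and lies at chr5:104435111-104441053 on the plus strand, with exons that overlap Gm42793. The 12Q libraries held 2110 and 7544 counts of it and the 48Q libraries 7599 and 6040, whereas each WT library held 3. As a level, Spp1 was at 78.0 and 233 CPM in 12Q, 229 and 172 CPM in 48Q and 0.156 and 0.133 CPM in WT, so that WT prostate was at the 3-count floor of detection. The ratio was 1133 for 12Q over WT (exact 95% interval 520.4 to 3088, counting error only) and 1391 for 48Q over WT (639 to 3792).

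Both increases of Spp1 passed (adjusted p = 0.00274 in 12Q and 0.0083 in 48Q), and the 48Q call was lost without WT replicate 1 (adjusted p = 0.0828). The 12Q replicates lay far apart, and the 12Q over WT ratio was 1626 without replicate 1 and 543.7 without replicate 2. Between 12Q and 48Q, Spp1 differed by -0.36 ± 0.49 on the log2 scale (adjusted p = 0.66), and the 12Q replicates spanned the 48Q values.

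**Figure D2:**
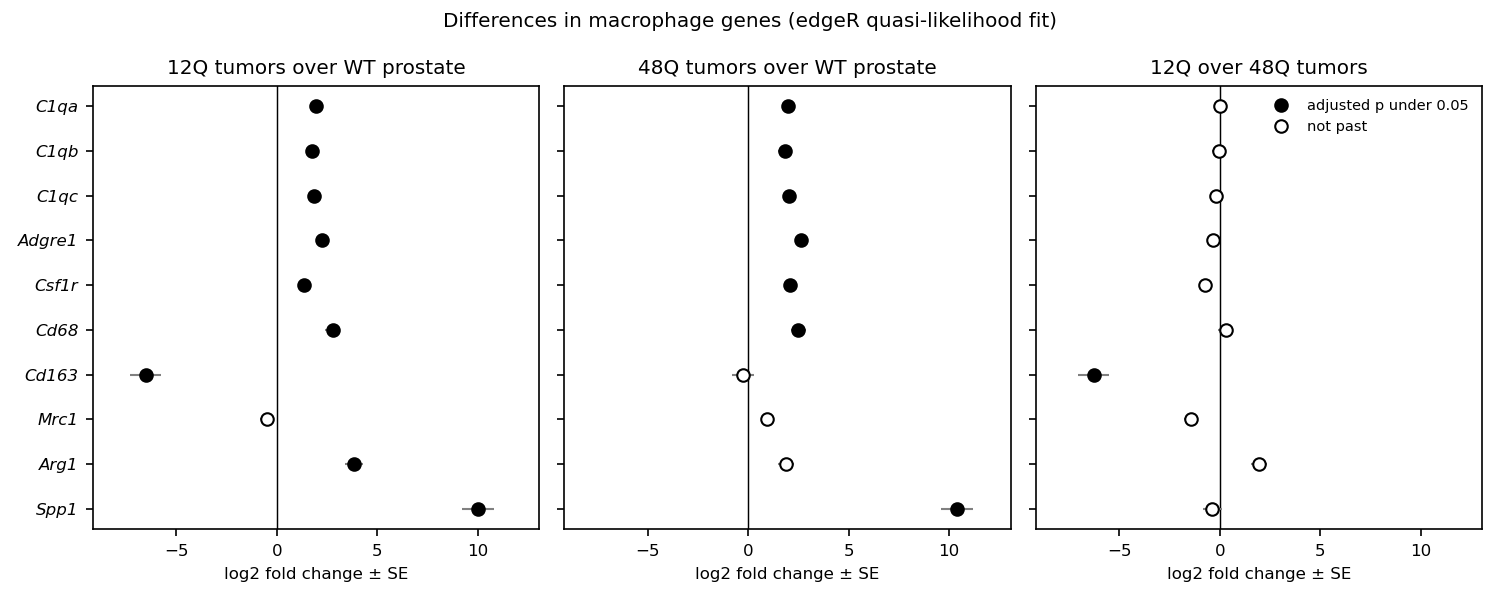
Log2 fold change (horizontal axis, ± SE) of the 10 genes in 12Q over WT, 48Q over WT and 12Q over 48Q, filled where the adjusted p was under 0.05. Of the 10 genes, 8 were higher and Cd163 lower in 12Q, 7 were higher in 48Q, and Cd163 alone passed between the tumor genotypes.

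Counted over the 10 genes, 8 rose and 1 fell in 12Q over WT, where 22.4% of all genes tested passed, 11.2% upward and 11.2% downward. In 48Q over WT, 7 rose and 0 fell, against 5.18% of all genes (3.95% upward and 1.23% downward). In 12Q over 48Q, 0 rose and 1 fell, against 4.17% of all genes (1.01% upward and 3.16% downward). At an unadjusted p under 0.05 these counts were 9 and 0 in 48Q over WT and 1 and 3 in 12Q over 48Q. The share of all genes at that unadjusted threshold was not counted, here or for the lists below. DESeq2's Wald test gave 8 and 0 in 48Q over WT, where 16.9% of all genes passed. In 12Q over 48Q it gave 1 and 2, where 16.5% of all genes passed. Median log2 fold changes were 1.91 in 12Q over WT, 2.01 in 48Q over WT and -0.27 in 12Q over 48Q, where the medians of all genes were -0.01, 0.02 and 0.00. The comparisons with WT share their WT libraries. The libraries of 12Q and WT did not overlap for 8 genes that were higher and 2 that were lower in 12Q, against 60.5% of all genes (30.1% higher and 30.4% lower). Between 48Q and WT there was no overlap for 9 genes, all higher in 48Q, against 64.5% of all genes (34.7% higher and 29.8% lower). Between 12Q and 48Q there was none for 1 gene higher and 5 genes lower in 12Q, against 66.8% of all genes (31.3% higher and 35.5% lower).

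With library totals in place of scaled totals, the same 9 genes passed in 12Q over WT, and Mrc1 and Arg1 joined in 48Q over WT. Under that scaling 76.0% rather than 50.1% of all calls in 12Q over WT were upward, and 95.9% rather than 76.3% in 48Q over WT, and the median of all genes stood at 0.485 and 0.709. The C1q, Adgre1, Csf1r, Cd68 and Spp1 changes in tumors and the Cd163 change in 12Q kept their direction under every scaling tried. In 12Q over 48Q, 24.2% of all calls were upward, against 14.1% with library totals and 37.1% by DESeq2's Wald test, and 61.5% of calls were upward in 48Q over WT by the Wald test.

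Set against C1q within each library, which needs no library scaling, the 4 activation genes gave different patterns. Values here are counts per 100 C1q counts. Cd163 had 0.0248 and 0.0238 in 12Q tumors, 2.14 and 1.89 in 48Q tumors and 5.53 and 14.1 in WT prostate. Mrc1 had 6.63 and 11.9 in 12Q tumors, 23.9 and 23.2 in 48Q tumors and 37.1 and 60.6 in WT prostate. Relative to C1q, both receptors were thus lowest in 12Q, intermediate in 48Q and highest in WT, with no overlap between groups. C1q, and Adgre1 used below, were themselves higher in tumors, so a gene of even level ranks below WT by these ratios. As levels, Cd163 in 48Q lay between the WT replicates and Mrc1 was highest in 48Q. The share of all genes without overlap by this ratio was not counted.

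Arg1 behaved otherwise. It had 30.6 and 74.2 counts per 100 C1q counts in 12Q tumors, 12.3 and 12.5 in 48Q tumors and 12.98 and 12.7 in WT prostate, so that 48Q tumors and WT prostate had nearly the same amount of Arg1 per C1q and 12Q tumors more. Spp1 had 52.2 and 179.6 in 12Q tumors, 160.9 and 113.1 in 48Q tumors and 0.361 and 0.402 in WT prostate. The identity genes varied less against C1q: Adgre1 had 12.0 and 16.1 in 12Q tumors, 18.6 and 15.3 in 48Q tumors and 10.3 and 11.0 in WT prostate, and Csf1r had 24.9 and 30.1 in 12Q tumors, 50.3 and 37.6 in 48Q tumors and 29.0 and 53.6 in WT prostate. Cd68 had 16.1 and 33.2 in 12Q tumors, 19.6 and 17.8 in 48Q tumors and 13.1 and 12.6 in WT prostate. These ratios are a description, given without a test. Against Adgre1 in place of C1q, Cd163 had 0.206 and 0.148 counts per 100 in 12Q tumors, 11.5 and 12.4 in 48Q tumors and 53.5 and 128.0 in WT prostate, the same order. Arg1 per 100 Adgre1 counts was 255.1 and 460.8 in 12Q tumors, 65.95 and 81.6 in 48Q tumors and 125.6 and 115.9 in WT prostate. By that measure Arg1 in 48Q tumors lay below WT prostate, so the near equality of these groups held against C1q only.

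**Figure D3:**
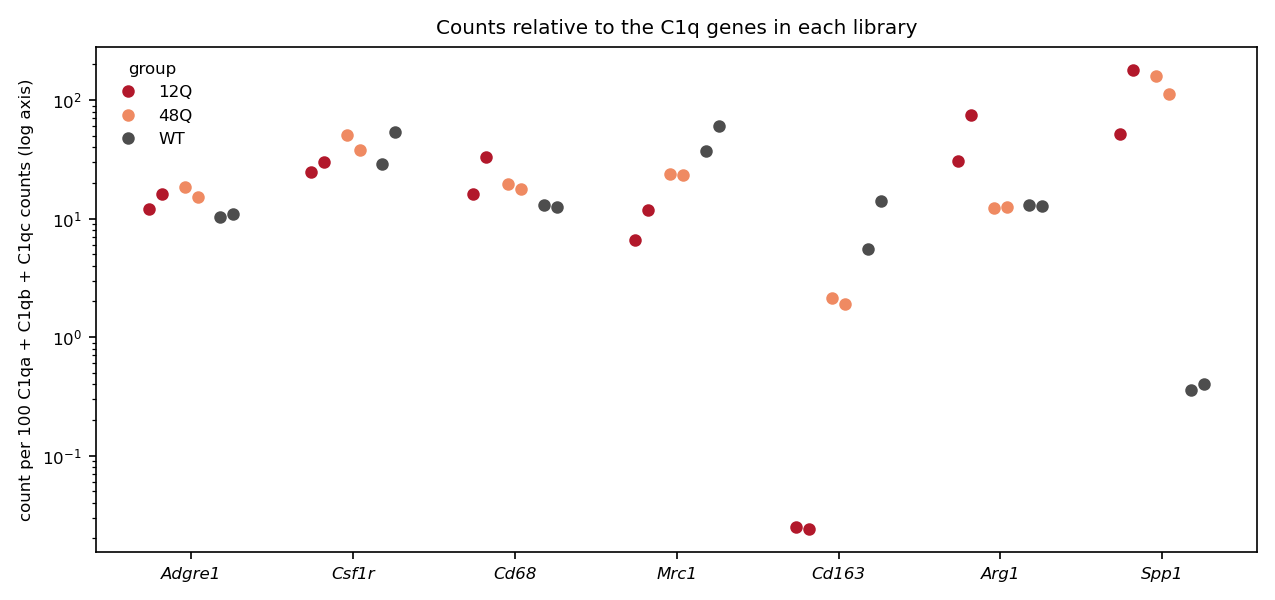
Counts of 7 genes per 100 counts of C1qa, C1qb and C1qc together in the same library (vertical log axis), with a point per library in 12Q, 48Q and WT. Cd163 was at 0.0248 and 0.0238 in 12Q against 5.53 and 14.1 in WT, and Arg1 at 12.3 and 12.5 in 48Q against 12.98 and 12.7 in WT.

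Per kilobase, levels of different genes can be compared within a group. In 12Q, Arg1 (31.1 and 65.6 CPM per kilobase) overlapped Spp1 (47.3 and 141), C1qa (52.4 and 54.0), C1qb (49.1 and 33.0), C1qc (39.0 and 35.0) and Cd68 (19.4 and 34.8). These genes were the highest of the 10 and Cd163 (0.00827 and 0.00691) was lowest. In 48Q, Spp1 (139 and 104) stood above C1qa (54.0 and 53.0), while Arg1 (11.9 and 12.9) overlapped Csf1r (13.04 and 10.4). In WT, C1qa (14.6 and 12.5) overlapped C1qb (14.5 and 9.56), and Spp1 (0.0948 and 0.0804) was the lowest of the 10.

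The genes whose log2 CPM followed the members most closely over the 6 libraries are given as a description, with 6 points that form 3 groups and share library scaling. The mean of the C1q genes was followed by Nucb2 (Pearson r = 0.993), Mtmr11 (0.990) and B4galt5 (0.989), and Adgre1 by the leukocyte membrane protein gene Laptm5 (0.998), Nucb2 (0.997) and the cathepsin gene Ctss (0.997). For Spp1 they were Clec7a, which encodes the fungal pattern receptor Dectin-1 (0.999), Cyp39a1 (0.998) and Mark1 (0.998), and for Cd163 Arhgef12 (0.998), Fam208a (0.997) and Fhl1 (0.996). Csf1r was followed by Tspan3 (0.995), Aco1 (0.993) and Lef1 (0.988), Cd68 by Rhou (1.000), Mpzl2 (0.999) and Slc40a1 (0.997), Mrc1 by Nav2 (0.992), Atrn (0.991) and Wdr60 (0.988), and Arg1 by Slc30a4 (0.999), Cyb5r3 (0.997) and Ly6d (0.996). Among the members, C1qa and Spp1 correlated at r = 0.993 and Cd163 and Arg1 at r = -0.87.

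Other genes of the myeloid lineage were measured too. Counts per list, here and below, stand against the shares of all genes tested that passed. These were 22.4% in 12Q over WT, 5.18% in 48Q over WT and 4.17% in 12Q over 48Q. Of 12 genes shared by myeloid cells, 8 rose and 0 fell in 12Q over WT (median log2 fold change 1.98) and 7 rose and 0 fell in 48Q over WT (median 2.37). Laptm5 was at 36.1 and 43.1 CPM in 12Q, 52.6 and 50.8 CPM in 48Q and 10.1 and 9.46 CPM in WT. Cybb, a subunit of the phagocyte oxidase, was at 31.1 and 42.5 CPM in 12Q, 52.9 and 47.4 CPM in 48Q and 9.23 and 8.40 CPM in WT. Aif1 and Coro1a also rose in both genotypes. No gene of the list passed in 12Q over 48Q, that is 0 of 12 (1 lower at an unadjusted p under 0.05, Ptprc lower by DESeq2's Wald test, median -0.39). The count for 12Q was 4 without 12Q replicate 2, 3 without either 48Q replicate, 5 without WT replicate 2 and 2 (Cybb and Laptm5) in a fit of the 12Q and WT libraries alone, with Aif1 and Coro1a lost in that fit and without either 48Q replicate (adjusted p up to 0.0896). The count for 48Q was 0 without WT replicate 1 or either 48Q replicate, 4 without WT replicate 2 and 11 with library totals or by the Wald test.

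Of 13 tested further macrophage genes, 8 rose and 1 fell in 12Q over WT (median 2.06) and 6 rose and 0 fell in 48Q over WT (median 2.15). Between 12Q and 48Q 0 passed (1 higher and 1 lower at an unadjusted p under 0.05, Cd14 higher by DESeq2's Wald test, median -0.26). Mpeg1, which encodes the pore-forming protein perforin-2, was at 115 and 135 CPM in 12Q, 200 and 178 CPM in 48Q and 15.9 and 16.3 CPM in WT. Ctss, Ms4a7 and Fcgr1 rose in both genotypes, and Cd14, a co-receptor for bacterial lipopolysaccharide, in 12Q, where it was at 39.3 and 70.5 CPM, against 24.5 and 16.9 CPM in 48Q and 9.33 and 4.46 CPM in WT. The gene that fell was Mertk, a receptor for apoptotic cells. Which cells carried its RNA, far above Adgre1 and Csf1r in WT, was not tested. Mertk was at 44.9 and 23.6 CPM in 12Q, 65.6 and 60.2 CPM in 48Q and 93.1 and 231 CPM in WT. It was named after its values were seen, and its call was lost without WT replicate 2 or 12Q replicate 2 (adjusted p up to 0.104). Without 12Q replicate 2 or either 48Q replicate, 5 genes of the list rose in 12Q, and 4 in a fit of the 12Q and WT libraries alone, with Fcgr1 not past the threshold in that fit or without either 48Q replicate (adjusted p up to 0.0676). In 48Q the count was 0 without WT replicate 1, 3 without 48Q replicate 1 and 2 without 48Q replicate 2.

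Of 12 genes of lipid-associated macrophages, a state named for its lipid handling and phagocytosis, 9 rose and 0 fell in 12Q over WT (median 1.43). In 48Q over WT 6 rose and 0 fell (median 1.03). Their summed level was 5002 and 4548 CPM in 12Q, 3091 and 2985 CPM in 48Q and 1733 and 1554 CPM in WT. Which cells carried this RNA, far above Trem2, was not tested. Trem2, the lipid-sensing receptor that marks the state, was at 6.47 and 7.52 CPM in 12Q, 7.92 and 8.33 CPM in 48Q and 0.261 and 0.309 CPM in WT. Lgals3, which encodes galectin-3 and is also made by epithelium, was at 265 and 395 CPM in 12Q, 63.4 and 62.8 CPM in 48Q and 6.52 and 4.55 CPM in WT. It was the one gene of the list that differed between tumor genotypes, with a log2 difference of 2.38 ± 0.30 in 12Q over 48Q (adjusted p = 0.0231) that was lost without 12Q replicate 2 or either 48Q replicate (adjusted p up to 0.143). The protease gene Ctsb, the lysosomal lipase gene Lipa and Apoe rose in both genotypes, Apoe not past the threshold in 12Q without WT replicate 1 (adjusted p = 0.0594). In a fit of the 12Q and WT libraries alone 5 of the 12 rose in 12Q, without Lipa (adjusted p = 0.0505). The 48Q count was 0 without WT replicate 1, 1 without either 48Q replicate and 3 without WT replicate 2.

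Genes of resident and perivascular macrophages fell with Cd163 in 12Q, but not as a whole list. Of 12, 2 rose and 5 fell in 12Q over WT, with a median of -2.46, or -2.29 with Cd209f and Cd209d at their bounds. In 48Q over WT 1 rose and 0 fell (median -0.51), and in 12Q over 48Q 0 rose and 2 fell (median -1.84). Lyve1, a hyaluronan receptor that lymphatic endothelium also expresses, was at 0.111 and 0.186 CPM in 12Q, 4.55 and 3.08 CPM in 48Q and 22.2 and 12.8 CPM in WT. Its log2 fold change was -6.82 ± 0.63 in 12Q over WT (adjusted p = 0.00353) and -4.63 ± 0.59 in 12Q over 48Q (adjusted p = 0.0231). The lectin gene Cd209f had 0 counts in both 12Q libraries, against 2.05 and 2.14 CPM in 48Q and 1.36 and 2.17 CPM in WT. With 3 counts per library as the floor, it was at least 20.5-fold lower in 12Q than in 48Q and at least 17.3-fold lower than in WT.

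F13a1, a coagulation factor subunit made by macrophages, was at 1.59 and 4.05 CPM in 12Q, 11.3 and 10.8 CPM in 48Q and 18.4 and 14.9 CPM in WT, and fell in 12Q over WT. Cd209d and Fcna, named after their values were seen, fell too. Clec4n, the gene of Dectin-2, rose in both genotypes and was at 6.03 and 12.3 CPM in 12Q, 6.59 and 6.90 CPM in 48Q and 0.0521 and 0.177 CPM in WT. The scavenger receptor gene Stab1, also named after its values were seen, rose in 12Q. It was at 33.7 and 76.3 CPM in 12Q, 55.5 and 60.8 CPM in 48Q and 5.32 and 14.9 CPM in WT. Its log2 fold change was 2.44 in 12Q over WT and 2.52 in 48Q over WT, where it did not pass (adjusted p = 0.0636). Without WT replicate 1 the 12Q over WT count was 1 up and 2 down, with F13a1, Cd209d, Fcna and Stab1 lost. Cd209d was lost without either 12Q or either 48Q replicate as well, Fcna also without 12Q replicate 1 and Stab1 also without 12Q replicate 2, and over all these the adjusted p was up to 0.109. The 12Q over 48Q calls of Lyve1 and Cd209f were lost without either 12Q replicate or 48Q replicate 1 (adjusted p up to 0.119), and that of Cd209f also without 48Q replicate 2. The Clec4n call in 48Q was lost without WT replicate 1 or either 48Q replicate (adjusted p up to 0.105).

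The genes of antigen presentation by MHC class II, which macrophages share with dendritic and B cells, were higher in 48Q than in 12Q tumors. Of 11 dendritic and MHC class II genes, 0 rose and 5 fell in 12Q over 48Q (median -1.77), 4 rose and 0 fell in 48Q over WT (median 1.85) and 2 rose and 1 fell in 12Q over WT (median -0.15). Cd74, the invariant chain, was at 94.4 and 86.1 CPM in 12Q, 314 and 303 CPM in 48Q and 78.4 and 92.7 CPM in WT. H2-Aa was at 33.1 and 15.4 CPM in 12Q, 122 and 115 CPM in 48Q and 36.2 and 41.6 CPM in WT. For both genes every 48Q library lay above all others. In 12Q over 48Q the log2 difference was -1.77 ± 0.22 for Cd74 (adjusted p = 0.0229) and -2.29 ± 0.38 for H2-Aa (adjusted p = 0.0361), and H2-Ab1, Cd209a and H2-Eb1 (the last named after its values were seen) passed as well. In this list the 12Q over 48Q count was 2 without either WT replicate or 12Q replicate 1, and 0 without 12Q replicate 2 or either 48Q replicate (adjusted p up to 0.204 over the 5 genes). A fit of the 12Q and 48Q libraries alone ended the calls of H2-Aa, H2-Ab1 and H2-Eb1.

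Against WT, Itgax, which encodes CD11c of dendritic cells and macrophages, rose in both genotypes (7.99 and 21.8 CPM in 12Q, 29.4 and 24.1 CPM in 48Q, 1.62 and 2.65 CPM in WT). The 48Q count was 0 without WT replicate 1 or either 48Q replicate and 1 without WT replicate 2. The 12Q calls of Itgax were lost without either WT replicate (adjusted p up to 0.0865), of Ccr7 without 12Q replicate 2 or either 48Q replicate (adjusted p up to 0.0572) and of Cd209a, which fell, when any 1 of the 6 libraries was left out (adjusted p up to 0.137).

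Genes of alternative activation did not move as a block. Of 10 tested genes of alternative activation, 3 rose and 3 fell in 12Q over WT (median 0.05), 2 rose and 0 fell in 48Q over WT (median 1.16, or 0.61 with genes at 0 in WT at their bounds) and 0 rose and 1 fell in 12Q over 48Q (median -0.41). The chemokine gene Ccl22 rose in both (3.59 and 4.95 CPM in 12Q, 3.88 and 5.19 CPM in 48Q, 0 and 0.0884 CPM in WT), with a ratio of 90.5 in 12Q (exact 95% interval 24.8 to 751.2) and 95.2 in 48Q (26.1 to 789.3). Ccl17, at 0 counts in both WT libraries, was at least 3.78-fold higher in 12Q and at least 5.34-fold higher in 48Q, and Chil3, a chitinase-like protein gene also at 0 in WT, at least 7.19-fold higher in 12Q. Retnla fell in 12Q, at 0.555 and 0.0619 CPM, against 8.04 and 2.28 CPM in 48Q and 49.4 and 11.5 CPM in WT.

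Clec10a, a galactose-binding lectin gene of macrophages and dendritic cells, was at 0.0370 and 0.155 CPM in 12Q, 4.46 and 4.31 CPM in 48Q and 0.782 and 1.37 CPM in WT. It fell in 12Q over 48Q (-5.41 ± 0.81, adjusted p = 0.0289) and in 12Q over WT (-3.40 ± 0.79, adjusted p = 0.0293), and the first of these was lost without either 12Q or either 48Q replicate (adjusted p up to 0.147). Ccl24, named after its values were seen, also fell in 12Q over WT. Of the 12Q over WT calls in this list, that of Ccl22 alone held without each of the 6 libraries. Ccl17 was lost when any 1 of them was left out, Chil3 without all but 12Q replicate 1, Retnla without 12Q replicate 2 or WT replicate 1, Clec10a without 12Q replicate 1, either 48Q replicate or WT replicate 2 and Ccl24 without all but WT replicate 2 (adjusted p up to 0.146). In 48Q over WT, 0 genes passed without WT replicate 1 or either 48Q replicate and 1, Ccl22, when any 1 of the other 3 libraries was left out.

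Of 11 tested genes of classical activation, 3 rose and 0 fell in 12Q over WT (median 1.75), where 22.4% of all genes passed. In 48Q over WT, where 5.18% of all genes passed, 1 of the 11 rose and 0 fell (median 2.22). At an unadjusted p under 0.05, 6 were higher and 0 lower in 12Q over WT, and 8 higher and 0 lower in 48Q over WT. In 12Q over 48Q 0 passed, where 2 were higher and 1 lower at an unadjusted p under 0.05 and Nos2 and Ptgs2 were higher by DESeq2's Wald test. Nos2, the inducible nitric oxide synthase that competes with arginase for arginine, was at 4.29 and 52.5 CPM in 12Q, 4.27 and 4.02 CPM in 48Q and 0 and 0.0442 CPM in WT, where it had 1 count in all, so that the ratio of 1277 in 12Q over WT has an exact 95% interval of 228.9 to 50460. Of the 1813 counts of Nos2 in 12Q, 1697 were in replicate 2, and without that library the ratio was 179.4 (31.6 to 7144). Tnf was at 7.77 and 27.7 CPM in 12Q, 7.37 and 5.08 CPM in 48Q and 1.30 and 1.11 CPM in WT, and Ptgs2, the prostaglandin synthase COX-2, at 33.0 and 119 CPM in 12Q, 14.5 and 27.0 CPM in 48Q and 3.55 and 3.09 CPM in WT. In all 3 genes 12Q replicate 2, which was also the higher 12Q library for Arg1, Spp1 and Cd68, was the highest of the 6 libraries. The 3 calls in 12Q were lost without WT replicate 1 or WT replicate 2 (adjusted p up to 0.0736), when 0 genes and 1 gene (Ccl5) of the list passed. The call of Irf5 in 48Q was lost when any 1 of the WT or 48Q replicates was left out (adjusted p up to 0.314), while 4 genes passed in 48Q without either 12Q replicate.

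**Figure D4:**
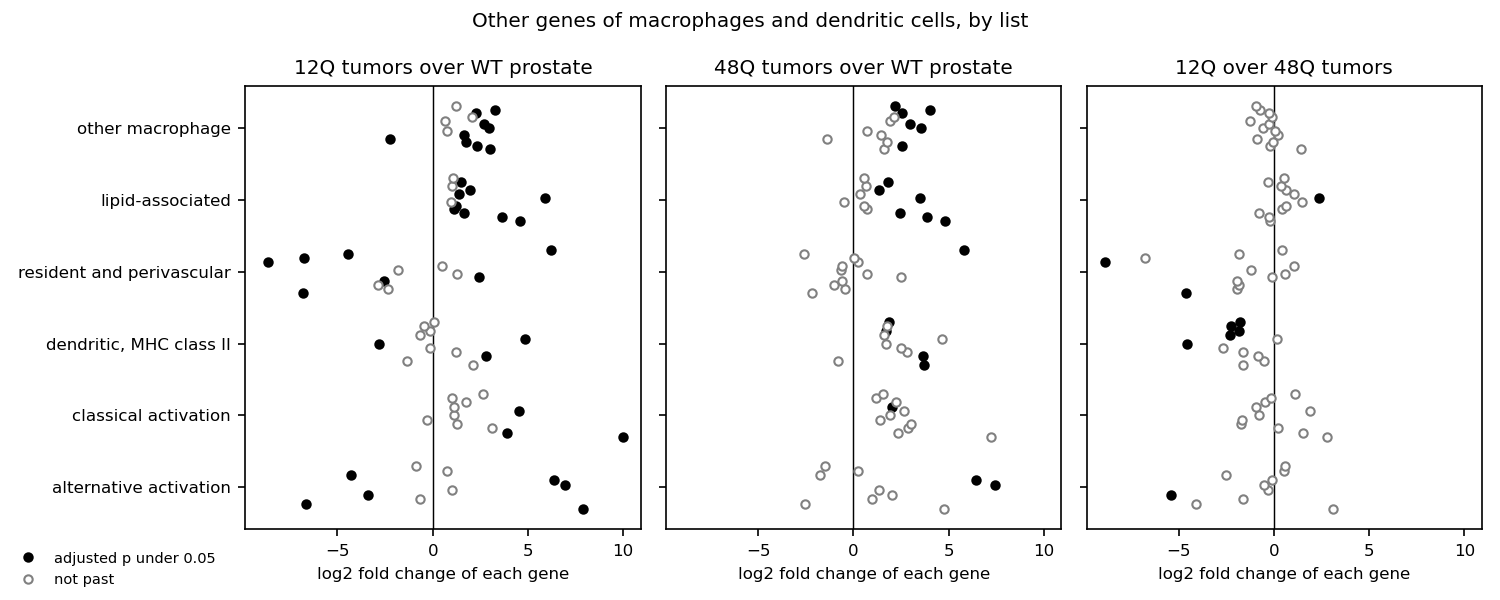
Log2 fold change (horizontal axes) of each gene in 6 other lists of macrophage and dendritic cell genes, for 12Q over WT, 48Q over WT and 12Q over 48Q, with filled points where the adjusted p was under 0.05. In the resident and perivascular list 5 genes fell and 2 rose in 12Q over WT, and in the dendritic and MHC class II list 5 fell in 12Q over 48Q.

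Partners of the members came next. Since 22.4% of all genes passed in 12Q over WT, a few calls per list there do not set these lists apart. Of 13 other complement genes, 2 rose and 2 fell in 12Q over WT (median 1.01), 0 passed in 48Q over WT (1 higher and 1 lower at an unadjusted p under 0.05, 1 and 1 by DESeq2's Wald test, median 0.72) and 0 rose and 1 fell in 12Q over 48Q (median 0.42). That gene was Serping1, which encodes the inhibitor of the C1 complex that C1q forms with its proteases and is also made by stromal cells. It was at 4.44 and 14.4 CPM in 12Q, 130 and 125 CPM in 48Q and 80.0 and 76.5 CPM in WT. Serping1 fell by 3.76 ± 0.55 in 12Q over 48Q (log2, adjusted p = 0.0277), a call lost without either 48Q replicate (adjusted p up to 0.0867), and it was also one of those that fell in 12Q over WT.

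In 12Q over WT, the cell-surface inhibitor gene Cd59a fell and Cd55, which encodes another, rose. The receptor gene C3ar1, named after its values were seen, rose as well. C3ar1 was at 15.6 and 23.0 CPM in 12Q, 21.0 and 22.5 CPM in 48Q and 8.45 and 3.98 CPM in WT. Its log2 fold change was 1.64 in 12Q over WT and 1.81 in 48Q over WT, where it did not pass (adjusted p = 0.0694). Cd59a was at 0.703 and 0.681 CPM in 12Q, 4.79 and 7.75 CPM in 48Q and 167 and 18.8 CPM in WT, and its call was lost without either 12Q replicate (adjusted p up to 0.0684). The increases of Cd55 and C3ar1 were both lost without 12Q replicate 2, either 48Q replicate or WT replicate 2, Cd55 also without WT replicate 1 and C3ar1 also without 12Q replicate 1 (adjusted p up to 0.135).

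Around arginase, of 9 tested genes of arginine and polyamine metabolism 1 rose and 2 fell in 12Q over WT (median -0.31), 0 rose and 1 fell in 48Q over WT (median -0.66) and 0 passed in 12Q over 48Q (3 higher and 1 lower at an unadjusted p under 0.05, 2 and 1 by DESeq2's Wald test, median 0.02). Ass1, which rebuilds arginine from citrulline, rose to 19.3 and 28.7 CPM in 12Q, against 2.97 and 6.06 CPM in WT, with 5.48 and 5.30 CPM in 48Q. Sms, spermine synthase, fell in both genotypes (3.88 and 3.68 CPM in 12Q, 10.5 and 7.58 CPM in 48Q, 38.2 and 32.1 CPM in WT), and the arginine transporter gene Slc7a1 fell in 12Q (196 and 194 CPM in 12Q, 220 and 230 CPM in 48Q, 589 and 371 CPM in WT). The Ass1 call was lost without 12Q replicate 2 (adjusted p = 0.0625), that of Slc7a1 with library totals and without each library but WT replicate 2 (adjusted p up to 0.0901), and that of Sms in 48Q when any 1 WT or 48Q replicate was left out (adjusted p up to 0.245).

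Among 12 genes of receptors and proteases of osteopontin and related matrix proteins, 3 rose and 0 fell in 12Q over WT (median 0.49), 1 rose and 0 fell in 48Q over WT (median 0.57) and 0 passed in 12Q over 48Q (3 higher and 0 lower at an unadjusted p under 0.05, as by DESeq2's Wald test, median 0.28). Cd44, the osteopontin receptor, rose in both genotypes, by 5.82 ± 0.43 in 12Q (log2, adjusted p = 0.0027) and 4.47 ± 0.41 in 48Q (adjusted p = 0.00991), the second lost without WT replicate 1 (adjusted p = 0.0669). Mmp7, a protease known to cleave osteopontin, and Thbs1 were higher in every tumor library than in WT. In 48Q over WT their log2 fold changes of 2.12 and 2.43 did not pass (adjusted p = 0.0846 and 0.104). In 12Q over WT both passed, with log2 fold changes of 3.33 and 2.90. Mmp7 was lost without WT replicate 2 (adjusted p = 0.0528) and Thbs1 without 12Q replicate 2 or either WT replicate (adjusted p up to 0.148), and the 48Q count was 3 without either 12Q replicate.

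Of 4 tested genes of the colony-stimulating factors and their receptors, 1, the receptor subunit gene Csf2rb, rose in 12Q over WT (median of the list 0.18). It was at 5.47 and 16.9 CPM in 12Q, 16.0 and 15.1 CPM in 48Q and 1.88 and 2.87 CPM in WT. Its call was lost when any 1 library other than 12Q replicate 1 was left out. Csf1, which encodes a ligand of Csf1r, passed in no comparison of the main fit. In a fit of the 48Q and WT libraries alone it passed as higher in 48Q. In 48Q over WT 0 passed (median 1.43), with 1 higher and 0 lower both at an unadjusted p under 0.05 and by DESeq2's Wald test. Between 12Q and 48Q 0 passed (median -1.01), with 2 lower at an unadjusted p under 0.05 and 1 lower by the Wald test. Of 8 monocyte genes, 1 rose and 2 fell in 12Q over WT (median -0.98), 0 rose and 1 fell in 48Q over WT (median 0.99) and 0 rose and 1 fell in 12Q over 48Q (median -0.91). The gene that rose was Ifitm3, and its call was lost when any 1 library other than 12Q replicate 1 was left out. The log2 fold change of Ifitm3 was 1.87 in 12Q over WT and 1.92 in 48Q over WT, where it did not pass (adjusted p = 0.0713). Ccr2, the chemokine receptor of blood monocytes, was at 2.33 and 1.76 CPM in 12Q, 12.8 and 12.97 CPM in 48Q and 5.74 and 5.75 CPM in WT. It fell in 12Q over 48Q (-2.65 ± 0.39, adjusted p = 0.0283), lost without either 12Q or either 48Q replicate (adjusted p up to 0.199), and in 12Q over WT, lost when any 1 of the 6 libraries was left out (adjusted p up to 0.15). Plac8 fell in both genotypes, at 6.14 and 16.3 CPM in 12Q, 26.9 and 19.1 CPM in 48Q and 249 and 141 CPM in WT. Its 48Q call was lost when any 1 WT or 48Q replicate was left out. Which cells carried the Plac8 RNA, far above Ccr2 in WT, was not tested.

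Markers of other cells moved beside these genes. Sums are over the genes of a list in the count table, tested or not. Where Cd163, Lyve1 and Serping1 were low in 12Q, 4 of 7 fibroblast genes fell in 12Q over 48Q and 4 of 7 in 12Q over WT, their summed level was 143.0 and 425.6 CPM in 12Q, 961.1 and 818.8 CPM in 48Q and 587.9 and 620.9 CPM in WT, and Dpt was at 0 in 12Q. Of 6 mast cell genes, 4 fell in both comparisons, the sum was 11.4 and 13.3 CPM in 12Q, 39.3 and 28.7 CPM in 48Q and 10.7 and 15.4 CPM in WT, and Mcpt4, Tpsb2 and Fcer1a were at 0 in 12Q. Of 5 smooth muscle genes, 5 fell in 12Q over WT, 4 in 12Q over 48Q and 2 in 48Q over WT, with sums of 39.7 and 32.5 CPM in 12Q, 809.1 and 284.1 CPM in 48Q and 2187 and 5555 CPM in WT. In 48Q over WT 0 fibroblast and 0 mast cell genes passed (2 higher and 1 lower, and 2 higher, at an unadjusted p under 0.05). Of 5 lymphatic endothelial genes, 2 fell and 1 rose in 12Q over WT, 2 fell in 12Q over 48Q and 1 rose in 48Q over WT, with sums of 31.6 and 27.5 CPM in 12Q, 52.8 and 48.0 CPM in 48Q and 43.4 and 52.5 CPM in WT. Their part in the results on Cd163, Mrc1 and Lyve1 was not tested.

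Beside the increases in tumors, 3 of 4 tested neutrophil genes rose in 12Q and 2 in 48Q over WT, with sums of 8.91 and 33.8 CPM in 12Q, 13.5 and 13.9 CPM in 48Q and 0.678 and 0.265 CPM in WT. Of 9 tested squamous epithelial genes, 5 rose and 1 fell in 12Q and 2 rose in 48Q, with sums of 199.3 and 447.6 CPM in 12Q, 110.0 and 161.4 CPM in 48Q and 228.9 and 6.50 CPM in WT. Of 9 prostate epithelial genes, 1 (Pbsn) fell in 12Q over WT and 0 passed in 48Q over WT (2 lower at an unadjusted p under 0.05), with sums of 20540 and 6017 CPM in 12Q, 16650 and 12760 CPM in 48Q and 104400 and 71080 CPM in WT. Of 6 endothelial genes, 3 rose and 1 fell in 12Q and 1 fell in 48Q, with sums of 240.2 and 220.4 CPM in 12Q, 133.5 and 136.0 CPM in 48Q and 80.7 and 108.3 CPM in WT. Between 12Q and 48Q, 0 neutrophil and 0 endothelial genes passed (1 lower and 1 higher at an unadjusted p under 0.05), and 1 squamous and 1 prostate epithelial gene fell. Their part in the results on Spp1, Arg1 and Nos2 was not tested.

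Smaller marker lists were also read. Of 6 T and NK cell genes 1 rose in 12Q over WT and 0 passed in 48Q over WT or 12Q over 48Q (3 and 0 at an unadjusted p under 0.05, all higher), with sums of 9.32 and 13.5 CPM in 12Q, 21.4 and 18.6 CPM in 48Q and 1.98 and 6.41 CPM in WT. Of 3 B and plasma cell genes 0 passed in any comparison (at an unadjusted p under 0.05, 1 was lower in 12Q over WT and 1 in 12Q over 48Q), with sums of 8.29 and 2.69 CPM in 12Q, 118.4 and 82.1 CPM in 48Q and 1.93 and 35.3 CPM in WT. B cells also express MHC class II, and their part in the results on Cd74 and H2-Aa was not tested. Of 3 skeletal muscle genes 2 fell in 12Q and 1 in 48Q over WT and 0 passed in 12Q over 48Q (1 lower at an unadjusted p under 0.05), with sums of 6.25 and 2.38 CPM in 12Q, 9.57 and 3.82 CPM in 48Q and 74.5 and 202.0 CPM in WT. Of 4 osteoclast and bone genes, listed because bone cells also make Spp1, 0 passed in any comparison (1 higher in each comparison with WT at an unadjusted p under 0.05, 1 higher and 1 lower in 12Q over 48Q), with sums of 27.9 and 52.0 CPM in 12Q, 40.4 and 29.9 CPM in 48Q and 17.5 and 23.6 CPM in WT. DESeq2's Wald test was not summed over the lists of other cell types.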

How the data were processed

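Fresh tumors and normal prostates gave the RNA, which was taken up in RNA-Bee, and libraries were made with a Kapa HyperPrep kit, per the labels' protocols. The deposited values are raw counts of reads per gene. The submitters' processing notes name TopHat2 (2.0.14), HTSeq (0.6.0) and the build mm10. Which annotation, strand setting and rule for multiply mapped reads applied is not given in the sources used here, so genes whose exons overlap another GENCODE M21 gene are uncertain (Csf1r, Spp1, Coro1a, Ctsb, F13a1, Fcna, Stab1, Cd74, Irf5, Csf2rb, Cd55, Mmp7 and Thbs1). Table columns that matched no sample numbered 0. The gene that carries the glutamine tract and 1 gene of the other lists are not reported here and enter no count over a list.

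Genes were kept by filterByExpr (minimum count 10, minimum total 15), scaled by TMM and tested by the quasi-likelihood F test of edgeR (4.0.16, under R 4.3.3), with a mean for each of the 3 groups and 3 residual degrees of freedom. The common dispersion was 0.143. SEs were derived from the F statistic. Alternatives were DESeq2 1.42.0 size factors, library totals, no filter, a replicate block, the 2 compared groups alone, DESeq2's Wald test and leaving out each library, where a lone sample is assumed to vary like the other groups. Counts simulated from the fit's own dispersions were used to check that known fold changes were recovered. Because they follow the fitted model, they do not check the p-values.

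The members and lists were chosen with earlier results of these data known. Named genes are the 10 members and, per other list and comparison, up to 4 that passed with the smallest adjusted p, or the 2 highest where none passed. Of these, most markers of other cell types and genes of lists with 0 calls are given only as counts, medians or sums. Exceptions, some outside this rule, are Epcam and Pbsn, which were read beside the tissue label, and markers at 0 in 12Q. Others are said to have been named after their values were seen. Likeness used genes with a mean of at least 10 CPM. Intervals, bounds and the floor of 3 counts cover counting error only.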

Additional observations from a re-analysis of the deposited data

Results flagged for a closer look

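Of the 10 members and 53 list genes described singly, 12 had an effect in 12Q over WT that differed from that in 48Q over WT, by a test of the difference itself, which is the 12Q over 48Q contrast of the same fit (edgeR, adjusted over 15050 genes). Over all 15050 genes, 627 (4.17%) differed. The list genes were named in part because they passed in this same contrast, so their share cannot be set against that of all genes. Cd163 differed by -6.28 on the log2 scale, the one member of the 10. Among genes of resident macrophages, Lyve1 differed by -4.63 and Cd209f by -8.89, a fitted value that depends on the prior count because Cd209f was at 0 in 12Q. The genes of antigen presentation and dendritic cells Cd74, H2-Aa, H2-Ab1, H2-Eb1 and Cd209a differed by -1.77, -2.29, -1.85, -2.23 and -4.56 in that order. Clec10a differed by -5.41, Ccr2 by -2.65 and Serping1 by -3.76. Lgals3 alone of the 12 differed upward, by 2.38. The summed levels of fibroblast and mast cell markers were lower in 12Q than in 48Q too, and their part in these differences was not tested. Each of the 12 calls was lost when at least 1 of the 6 libraries was left out. Among markers of other cell types, Pbsn differed by -9.51, and Dpt, Mcpt4 and Tpsb2, which were at 0 in 12Q, by fitted values of -11.21, -10.34 and -10.46 that depend on the prior count.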

How the results depend on the processing

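Depth limits Cd163 in 12Q (1 count per library) and Spp1 in WT (3 counts per library), where ratios carry wide intervals. Genes called in 48Q over WT numbered 780, but 2001 with library totals and 2540 by DESeq2's Wald test, and in 12Q over 48Q 627, but 2481 by the Wald test. In 12Q over WT they numbered 3370, but 1887 in a fit of those 2 groups. Members called in 12Q over 48Q numbered 2 with no filter (Cd163 and Arg1) and 3 by the Wald test (with Mrc1). Leaving out each library in turn gave 1861 to 2934 genes and 8 to 9 members in 12Q over WT, 0 to 1215 genes and 0 to 8 members in 48Q over WT, where both counts were 0 without WT replicate 1, and 47 to 866 genes and 0 to 1 members in 12Q over 48Q. The replicate numbers did not pair the samples (correlations of deviations 0.035, 0.116 and -0.107), and with the replicate block 3066, 854 and 605 genes and 9, 7 and 1 members passed in 12Q over WT, 48Q over WT and 12Q over 48Q.

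Tested differences that reversed passed in neither setting. In 12Q over 48Q, C1qa was at 0.0121 with DESeq2 size factors, 0.0059 with no filter, 0.0085 in the fit of 2 groups and 0.0122 by the Wald test. With library totals, Mrc1 in 12Q over WT was at 0.0019 and Cd163 in 48Q over WT at 0.408. Leaving out libraries moved 12Q over 48Q between -0.0196 and 0.0426 for C1qa, -0.339 and 0.218 for C1qb, -0.183 and 0.679 for Cd68 and -1.35 and 0.249 for Spp1, and Cd163 in 48Q over WT between -0.652 and 0.293. Per 100 Adgre1 counts in place of C1q, the log2 ratio in 48Q over WT turned to -0.57 for Csf1r and -0.12 for Cd68. The cause was not tested. Of the named calls outside the 10 genes, 28 to 37 of 47 held in 12Q over WT when a library was left out, 0 to 23 of 24 in 48Q over WT and 0 to 8 of 11 in 12Q over 48Q, and none changed direction. With library totals the 12Q over WT calls of Cd209a, Ccr2 and Slc7a1 were lost, and 31 of the 47 held in a fit of those 2 groups. That fit left 1 gene that fell in the alternative activation list (3 before) and 0 that rose among other complement genes (2 before). Library totals and the Wald test each gave 8 dendritic genes that rose in 48Q over WT (4 before), 5 of classical activation (1 before) and 3 of the osteopontin list (1 before).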
